A study of Rattus norvegicus with 6 samples.

Results

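The most abundant piRNAs of rat sperm were examined in HPD and SD fathers. They were chosen by level: a single piRNA matched to the genome was kept if its normalized count averaged at least 50 over the 6 libraries. This gave 92 piRNAs of 25889 listed, or 0.355%. The mean over both diets chose the members, so their levels are given as a description, and the diet contrast was tested. The 6 libraries were small RNA from spermatozoa of wild type Wistar rats aged 5 months, 3 on a standard diet (SD) and 3 on a high-protein diet (HPD) given for 2 to 3 months from 10 weeks of age. Sperm were taken from the epididymis, and the study describes each library as 1 rat. Libraries are named after the columns of the tables, CTRL1 to CTRL3 for SD, and HPD2, HPD3 and HPD7 for HPD. A hypotonic shock before extraction served to reduce other cells, and the labels give no other treatment or allele in either group.

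PIWI-interacting RNAs (piRNAs) are small RNAs of the germ line that are loaded onto PIWI proteins, a branch of the Argonaute family. Most are cut from long single-stranded transcripts of genomic clusters, and they guide PIWI proteins to silence transposons. In mammalian testis a large class arises at the pachytene stage of meiosis, mostly from regions poor in transposons, and part of it persists in mature sperm. A piRNA was recognised here by its match to a database entry, and read length, sequence and genome position were not analysed. The single piRNAs named below are given no role and are described by level alone.

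The libraries held between 4141018 (CTRL2) and 7920000 (CTRL1) reads, of which 1.06% to 1.38% were on piRNAs. CTRL3, with 4254027 reads, listed 5247 piRNAs above 0, against 9974 to 16757 in the other libraries. Germ cell miRNAs were present in all 6 libraries (13 of 13 markers, summed normalized count 77949 to 95763 in SD and 94177 to 127245 in HPD). Markers of other cells were also read: 7 of 7 for epithelium (39921 to 77405 in SD, 26069 to 51100 in HPD), 4 of 4 for smooth muscle and stroma (39679 to 91053, 20744 to 65653), 5 of 5 for leukocytes (9671 to 10779, 4440 to 5321), 1 of 2 for endothelium (3076 to 6392, 1012 to 1732) and 2 of 2 for red cells (1093 to 1635, 617 to 674). The leukocyte, endothelial and red cell sums were lower in every HPD library than in any SD library. All these markers are miRNAs, and the 285 miRNAs tested had a median log2 fold change of -0.86 in HPD against SD. Of these, 83 were lower and 0 higher at an edgeR adjusted p of at most 0.05. The part of other cells in the piRNA results was not tested. In such bulk RNA, fewer cells of a type and less RNA per cell cannot be told apart.

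Levels fell steeply with rank. The median of the 92 means was 77.9 normalized counts, 59 piRNAs lay below 100, 33 at or above 100, 11 at or above 200 and 2 at or above 1000. Counts were not divided by length. rno-piR-226 ranked first in all 6 libraries, with 5597, 3550 and 4370 normalized counts in CTRL1, CTRL2 and CTRL3 and 4792, 4256 and 2444 in HPD2, HPD3 and HPD7. rno-piR-23723 ranked second in all 6, with 5176, 3281 and 4081 in SD and 4272, 3898 and 2221 in HPD. The groups overlapped for both, and HPD7 was the lowest library. The third, rno-piR-36081, lay 4.72-fold below the second by its mean, at 776, 674 and 636 in SD and 807, 973 and 996 in HPD.

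**Figure D1:**
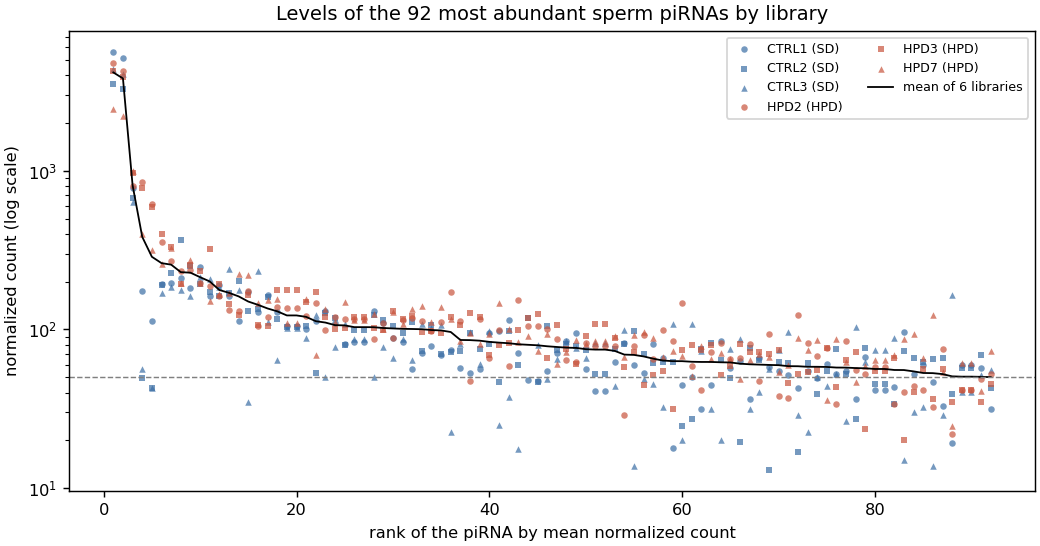
Normalized count (log scale) of the 92 piRNAs in each library against rank by mean, with the mean as a black line and the threshold of 50 dashed. The means of 2 piRNAs lie above 1000 and those of 59 below 100; a value listed at 0 in CTRL3 is not drawn.

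Below the second place the order depended on the library. rno-piR-36081 ranked 3 in every library but HPD2, where it ranked 4. rno-piR-61534 and rno-piR-61384 followed it by the mean. rno-piR-61534 ranked 10, 76 and 56 among the 92 in CTRL1, CTRL2 and CTRL3 but 3, 4 and 4 in HPD2, HPD3 and HPD7. rno-piR-61384 ranked 20, 82 and 69 in SD and 5, 5 and 6 in HPD. rno-piR-27752, rno-piR-22923, rno-piR-37613, rno-piR-33165 and rno-piR-36806 made up the rest of the 10 most abundant, with means between 213 and 262. Neighbours in this order were not set apart by the spread between libraries. rno-piR-27752 lay above rno-piR-22923 in 2 of 6 libraries, rno-piR-22923 above rno-piR-37613 in 4, rno-piR-37613 above rno-piR-33165 in 3 and rno-piR-33165 above rno-piR-36806 in 4.

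At the threshold, the 3 members with the lowest means were rno-piR-41474 (50.3 normalized counts), rno-piR-31631 (50.2) and rno-piR-45412 (50.03). Just outside lay rno-piR-38432 (49.98), rno-piR-25195 (49.95) and rno-piR-27649 (49.5). When 1 library was left out of the mean, 89 to 97 piRNAs passed. In the full set, 73 members averaged at least 50 in both diet groups, 7 in SD only and 12 in HPD only.

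Many of the rows shared reads. The deposited counts can be fractions, and 80 of the 92 members had a fractional count in at least 1 library. The estimated counts of 5 pairs were equal in every library: rno-piR-24045 with rno-piR-47651, rno-piR-29444 with rno-piR-9147, rno-piR-23198 with rno-piR-33007, rno-piR-28513 with rno-piR-32948, and rno-piR-18617 with rno-piR-41474. rno-piR-24045 and rno-piR-47651, for example, both had 154.67, 80.53 and 81.62 estimated counts in SD and 117.21, 205.83 and 162.51 in HPD. Such pairs cannot be told apart in these data. The first 2 piRNAs kept a nearly fixed ratio, with rno-piR-226 between 1.07 and 1.12 times rno-piR-23723. By equality or a ratio that varied by at most 1.1 times, 15 members fell in 7 sets.

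rno-piR-61534 and rno-piR-61384 also went together. Their estimated counts differed by whole numbers in all 6 libraries (90, 5 and 11 in SD, 200, 210 and 118 in HPD) while 4 libraries gave both a fraction. In those 4 both counts ended in the same fraction, such as 256.5 and 166.5 in CTRL1. Their ratio ran from 1.15 to 1.54, so sharing was inferred and its extent is not known. Counting rows linked in this way too, a rule added after the values were seen, 35 members fell in 17 sets, and the 92 came to 74 when each set was counted once. Abundant piRNAs are therefore not 92 independent measurements.

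The diet contrast asked which of these piRNAs differ between sperm of HPD and SD fathers. 2 of the 92 rose in HPD and none fell (edgeR quasi-likelihood test, Benjamini-Hochberg adjusted p of at most 0.05). Over all 1858 small RNAs tested, 2.21% were called higher and 6.4% lower, so the 2.17% called higher among the abundant piRNAs lay near this background. Most of the lower background came from miRNAs, with 83 of the 119 lower calls. The background depended on the rows tested, as rows for tRNA ends hold reads also counted in whole tRNA rows. Without these nested rows the same 2 members were called (2.17%), beside 0.888% higher and 4.67% lower of 1690 rows. All 1300 piRNAs tested gave 5 calls higher and 1 lower. With the stricter thresholds of the study (at least 2-fold and a mean above 200), the same 2 remained. Only 11 of the 92 had a mean high enough to pass. The background was 1.51% higher and 4.57% lower, as shares of all 1858 small RNAs at any level. None was called lower, and at an unadjusted p below 0.05 there were 6 higher (6.52%) and 0 lower, beside 6.84% higher and 10.7% lower over all small RNAs. DESeq2 called 6 higher (6.52%) and 0 lower, beside 4.95% and 8.07% of all. Of these 6, rno-piR-43737 and rno-piR-61006 averaged at least 50 in HPD only, so the choice of members bears on this share. limma on log2 of the normalized count plus 1 called 0 members in either direction and 7 of the 1858 small RNAs.

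rno-piR-61384 had 114, 43.0 and 42.6 normalized counts in CTRL1, CTRL2 and CTRL3 and 613, 592 and 318 in HPD2, HPD3 and HPD7. All HPD libraries lay above all SD libraries, and the lowest HPD library was 2.80-fold above the highest SD library. Group means were 66.4 ± 40.9 in SD and 507 ± 165 in HPD (SD, n = 3), a 7.64-fold difference, with a log2 fold change of 2.83 (SE 0.47, edgeR adjusted p = 0.00421). rno-piR-61534 had 175, 49.5 and 56.3 normalized counts in the SD libraries and 845, 774 and 398 in the HPD libraries. Its groups did not overlap either. Means were 93.7 ± 70.7 and 672 ± 240 (SD, n = 3), a 7.18-fold difference, with a log2 fold change of 2.74 (SE 0.53, edgeR adjusted p = 0.00867).

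Within SD, CTRL1 stood above the other libraries for this pair, by 2.64-fold for rno-piR-61384 and 3.11-fold for rno-piR-61534. Within HPD, HPD7 was the lowest for both. Together the pair held 1.52%, 0.602% and 0.615% of the reads on abundant piRNAs in CTRL1, CTRL2 and CTRL3, against 7.34%, 7.08% and 4.66% in HPD2, HPD3 and HPD7. Both calls held whichever library was left out, with log2 fold changes of 2.59 to 3.55 for rno-piR-61384 and 2.47 to 3.65 for rno-piR-61534. They were lost when piRNAs were fitted without the other small RNAs (log2 fold changes 2.75 and 2.66, edgeR adjusted p = 0.151 and 0.197) and in limma (3.02 and 3.00, adjusted p = 0.0637 and 0.0863), with folds about as large. The pair may share reads, as inferred from the counts, and it counts as 1 call rather than 2 when linked rows are counted once.

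**Figure D2:**
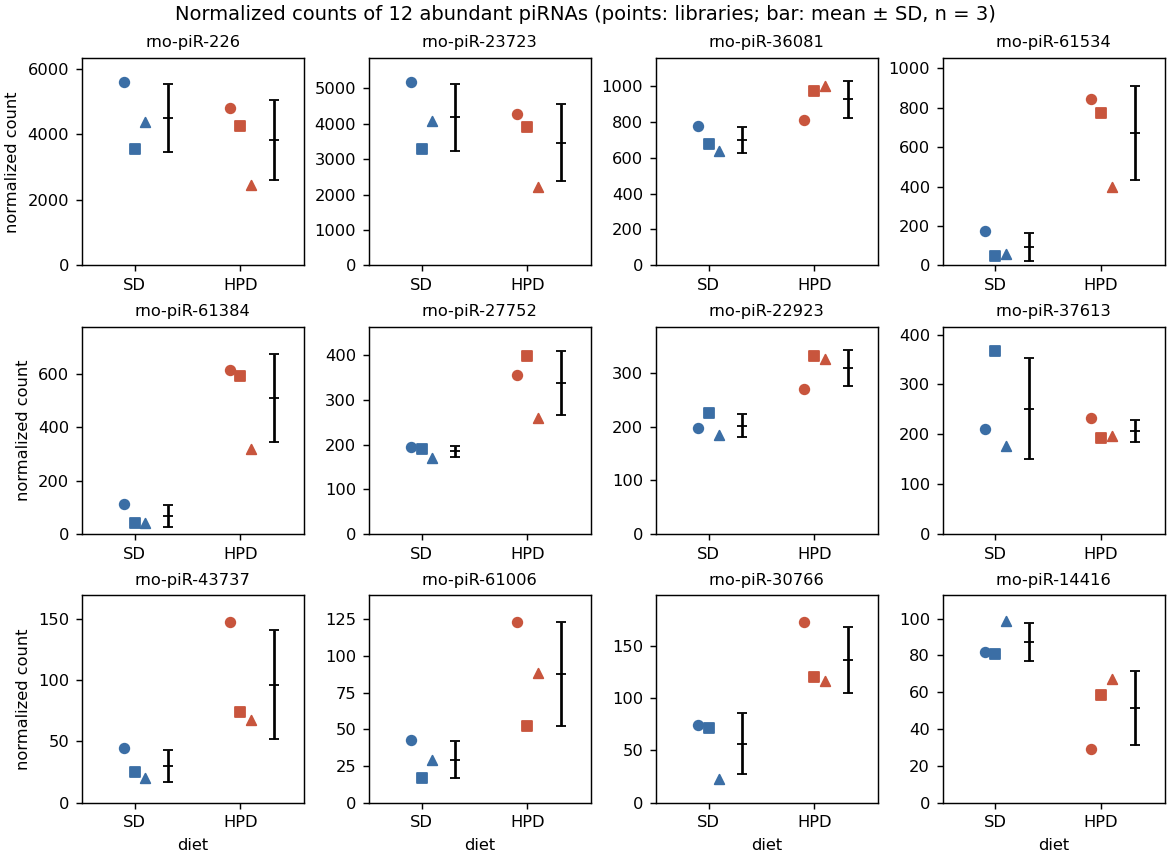
Normalized counts of 12 abundant piRNAs, with circles, squares and triangles for single SD (blue) and HPD (red) libraries and a bar for the mean and SD of 3 libraries; each panel has its own axis from 0. rno-piR-61534 and rno-piR-61384 show the widest gap, rno-piR-226 and rno-piR-23723 overlap between diets, and rno-piR-14416 lay lower in every HPD library.

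The other 90 abundant piRNAs did not pass the adjusted test. The largest differences among those with no overlap between groups were in rno-piR-43737, rno-piR-61006 and rno-piR-30766. rno-piR-43737 had 44.5, 24.7 and 20.0 normalized counts in SD and 147, 73.9 and 67.8 in HPD (log2 fold change 1.58, SE 0.48, edgeR adjusted p = 0.0792). rno-piR-61006 had 42.4, 16.9 and 28.8 in SD and 123, 52.2 and 88.2 in HPD (1.51, SE 0.50, edgeR adjusted p = 0.104). rno-piR-30766 had 74.6, 71.6 and 22.5 in SD and 173, 120 and 116 in HPD (1.20, SE 0.47, edgeR adjusted p = 0.196). In each of these the HPD2 library was the highest. rno-piR-43737 and rno-piR-61006 averaged at least 50 in HPD only (means of 29.7 and 29.4 on the standard diet). The choice of members therefore bears on their direction.

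Among the 10 most abundant, rno-piR-36081, rno-piR-27752 and rno-piR-22923 also had no overlap. The HPD libraries of rno-piR-36081, given above, began at 807 where the SD libraries ended at 776 (log2 fold change 0.37, SE 0.25, edgeR adjusted p = 0.603). rno-piR-27752, a row of whole counts only, had 194, 190 and 170 normalized counts in SD and 356, 399 and 260 in HPD (log2 fold change 0.82, SE 0.29, edgeR adjusted p = 0.125). rno-piR-22923 had 197, 225 and 184 in SD and 271, 332 and 326 in HPD (0.58, SE 0.28, edgeR adjusted p = 0.338). The call of rno-piR-27752 depended on the method, as did those of rno-piR-43737, rno-piR-61006 and rno-piR-30766: DESeq2 called all 4, with adjusted p = 0.0194, 0.0109, 0.0195 and 0.0469. For the first 2 piRNAs the log2 fold change was -0.30 (SE 0.29, edgeR adjusted p = 0.761) for rno-piR-226 and -0.33 (SE 0.28, edgeR adjusted p = 0.713) for rno-piR-23723. Without HPD7 these became 0.05 and 0.01. The log2 fold changes of rno-piR-33165, rno-piR-37613 and rno-piR-36806 were 0.33, -0.31 and -0.12, with SEs of 0.31, 0.34 and 0.29 and overlapping groups.

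In the other direction, 4 piRNAs were lower in every HPD library than in any SD library, and none was called. rno-piR-14416 had 82.1, 80.7 and 98.9 normalized counts in SD and 29.0, 58.3 and 67.2 in HPD (log2 fold change -0.76, SE 0.41, edgeR adjusted p = 0.419). The others were rno-piR-19007 (-0.62), rno-piR-31631 (-0.55) and rno-piR-23949 (-0.26), with adjusted p between 0.621 and 0.836 in edgeR. rno-piR-19007 and rno-piR-31631 averaged at least 50 in SD only (HPD means of 44.9 and 41.4), so the choice of members bears on their direction. The lowest log2 fold change of all, -1.46 in rno-piR-53448 (SE 0.70, edgeR adjusted p = 0.331), rested on 1 library. It had 164 normalized counts in CTRL3, against 19.2 and 39.0 in CTRL1 and CTRL2 and 22.0, 34.8 and 24.4 in HPD. Its mean in HPD was 27.1, so it too was a member through SD alone.

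**Figure D3:**
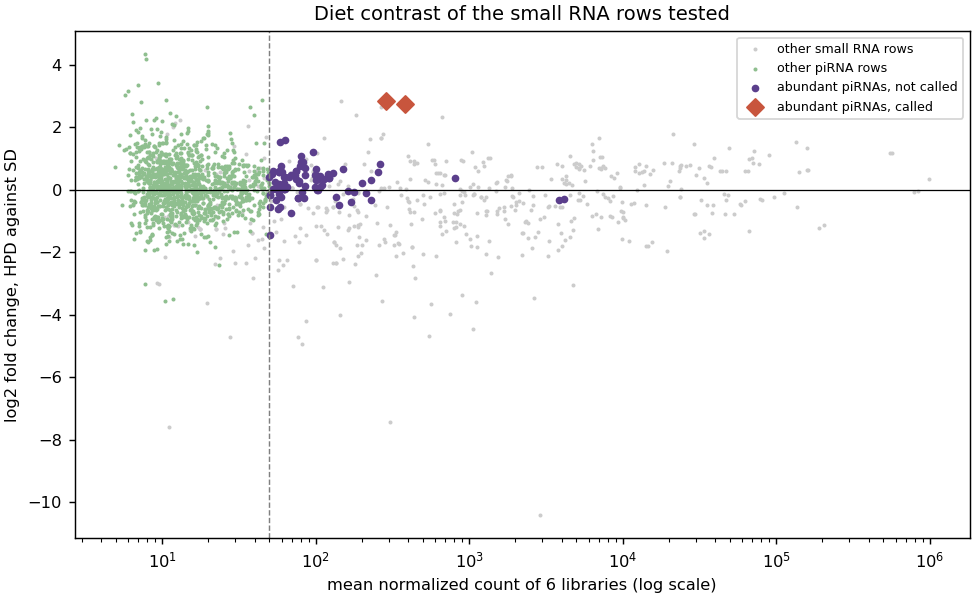
Log2 fold change of HPD against SD (vertical) against mean normalized count (log scale) for the 1858 small RNAs tested. Red diamonds are the 2 called abundant piRNAs, purple the other 90, green the other piRNAs and grey the other small RNAs; the dashed line marks a mean of 50, and 7 of the 92 reach 1 in either direction.

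The median over the abundant piRNAs was positive, above that of all small RNAs except where no filter on low counts was applied. The median log2 fold change of the 92 was 0.27 (quartiles -0.01 and 0.51), beside 0.03 over all small RNAs tested and 0.12 over the other 1208 piRNAs tested. 68 of 92 were positive (73.9%), beside 51.7% of all and 56.3% of the other piRNAs. With library size alone as the scale 52 of 92 were positive (56.5%), beside 45.4% of all and 50.2% of the other piRNAs. The medians on that scale were 0.17 for the 92, -0.09 over all and 0.01 over the other piRNAs. The choice of members bears on these medians and counts, as 12 members averaged at least 50 in HPD only and 7 in SD only. The other piRNAs are those that fell under the same threshold. In size, 63 of the 92 lay within 0.5 of 0 and 7 reached 1 in either direction, while the median SE was 0.39. The other piRNAs gave 3 calls higher and 1 lower. Since many members share reads, no test of the group was made.

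24 of the 92 (26.1%) had every HPD library above every SD library by normalized count, where 12.1% of all small RNAs did, and 4 (4.35%) had every HPD library below, where 13% did. Of the 24, 6 averaged at least 50 in HPD only, and of the 4, 2 did so in SD only, so for these the direction was partly fixed by the choice of members. With reads per library read in place of the deposited normalization, 10 were higher (10.9%, beside 9.10% of all small RNAs) and 4 lower (4.35%, beside 15.3%), so the share higher then lay near the background. With TMM factors the counts were 21 (22.8%, beside 11.9% of all) and 3 (3.26%, beside 13.1%). With linked rows counted once they were 18 (24.3%) and 4 (5.41%) of 74. The shares of all small RNAs, where linked rows were not merged, were 12.1% and 13%. Leaving out a library gave 26 to 36 higher and 4 to 10 lower, the 10 without HPD7, while the shares over all small RNAs rose to between 16.0% and 21.4% higher and between 15.5% and 18.4% lower. Among the other 1208 piRNAs, 99 (8.20%) were higher and 49 (4.06%) lower in this sense.

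The spread between libraries was described for each diet, with no test. The median coefficient of variation was 28.5% in SD and 21.0% in HPD, beside 12.2% and 9.87% from counting alone, and it was larger in SD for 59 of 92. It passed 50% for 20 piRNAs in SD and 4 in HPD. CTRL3 was the lowest of the 6 libraries for 40 of the 92. rno-piR-61203, for example, had 35.1 normalized counts in CTRL3 but 173 and 131 in CTRL1 and CTRL2, and 175, 164 and 221 in HPD. rno-piR-9092 had 13.8 in CTRL3 but 59.5 and 97.6 in the other SD libraries and 78.8, 72.2 and 92.3 in HPD. rno-piR-8189 was listed at 0 in CTRL3, where 3 reads, the limit that a count of 0 allows, would be 3.76 normalized counts. It had 47.9 and 117 in the other SD libraries and 105, 118 and 90.9 in HPD. At the other end, rno-piR-23949 varied little, with 84.2, 80.7 and 83.9 in SD and 63.7, 75.7 and 71.9 in HPD.

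**Figure D4:**
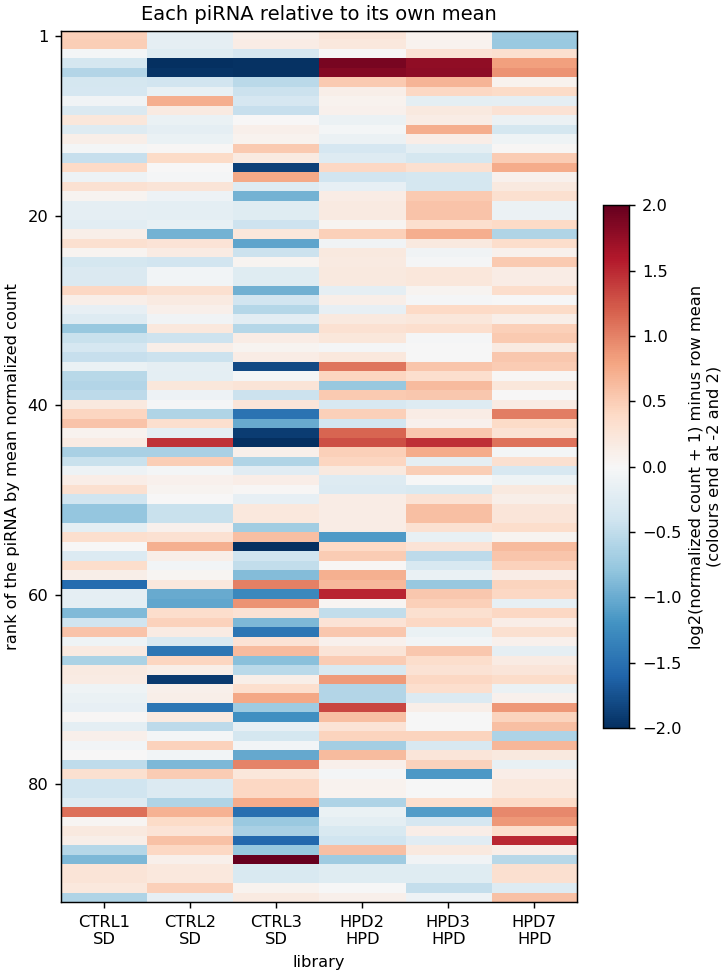
Each of the 92 piRNAs (rows, by rank) in the 6 libraries, as log2(normalized count + 1) minus its own mean, from blue (low) to red (high), with colours ending at -2 and 2. Rows 4 and 5 are rno-piR-61534 and rno-piR-61384, low in CTRL2 and CTRL3 and high in HPD; CTRL3 holds the lowest value of 40 rows.

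The abundant piRNAs held a similar share of all piRNA reads in both groups, 25.4 ± 2.70% in SD and 25.6 ± 3.17% in HPD (SD, n = 3, two-sided exact permutation test, p = 0.9, and 0.9 adjusted over the 7 shares computed). Libraries ranged from 22.5% to 27.9% in SD and from 22.1% to 28.3% in HPD. Of all library reads they held 0.312 ± 0.0342% and 0.298 ± 0.00846% (SD, n = 3, exact permutation p = 0.8, adjusted 0.9). The 10 most abundant took 62.7 ± 5.11% and 58.3 ± 7.55% of the abundant piRNA reads (SD, n = 3, exact permutation p = 0.5, adjusted 0.7). With 3 libraries against 3, the smallest p this test can give is 0.1, so no share could pass 0.05.

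The members were then split by rank, a division made after the values were seen, so these shares are a description. They are among the 7 shares in the adjustment above. The exact permutation test gave p = 0.4 for the first 2 piRNAs (adjusted 0.7). For each of the others it gave 0.1 (adjusted 0.233), the smallest it can give, so no conclusion is drawn from it. The members below the first 2 include 12 that averaged at least 50 in HPD only and 7 in SD only, so the choice of members itself bears on their direction. rno-piR-226 and rno-piR-23723 together held 13.1 ± 2.91% of piRNA reads in SD and 10.2 ± 3.19% in HPD (SD, n = 3), with overlapping libraries. The other 90 held 12.1% (Wilson 95% interval 11.9 to 12.3), 12.5% (12.2 to 12.8) and 12.2% (11.9 to 12.5) in CTRL1, CTRL2 and CTRL3. In HPD2, HPD3 and HPD7 they held 15.4% (15.1 to 15.7), 15.2% (14.9 to 15.4) and 15.4% (15.2 to 15.6). These intervals cover counting error only. All HPD libraries lay above all SD libraries, with means of 12.3 ± 0.214% and 15.3 ± 0.118% (SD, n = 3). Without rno-piR-61534 and rno-piR-61384 the means were 12.0 ± 0.354% and 13.7 ± 0.597% (SD, n = 3), still without overlap. Of all library reads the other 90 held 0.151 ± 0.00736% in SD and 0.181 ± 0.0271% in HPD (SD, n = 3).

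**Figure D5:**
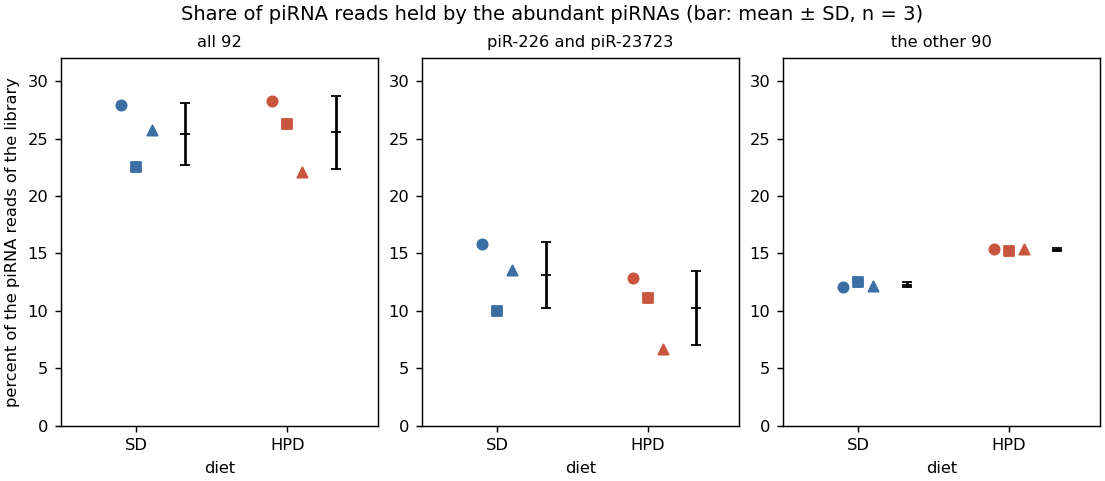
Percent of the piRNA reads of each library held by all 92 abundant piRNAs (left), by rno-piR-226 and rno-piR-23723 (middle) and by the other 90 (right), with points for single libraries and bars for the mean and SD of 3. The groups overlap in the first 2 panels, and in the third SD lies at 12.1% to 12.5% and HPD at 15.2% to 15.4%.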

How the data were processed

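Small RNA of sperm from 3 SD and 3 HPD rats was trimmed by the authors, who discarded short reads and used SPORTS1.0 to assign the rest to databases for Rnor_6.0 (rat), piRNA entries included. Bowtie, DESeq, DESeq2 and mm9 (mouse) stand in the submitters' processing notes too. The authors deposited estimated counts, which can be fractions where a read fits several entries, and a normalized count, a signal equal to the cut count divided by 1 factor per library (100% of values in each library).

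Columns were grouped by diet and not tied to numbered rats. A total row of snoRNA (0.293% to 0.536% of reads in SD, 1.25% to 1.45% in HPD) and 178 nested tRNA end rows were left out of library sizes, and the total row was also left out of the tests. The main test was the quasi-likelihood test of edgeR 4.0.16 (R 4.3.3) on counts rounded to whole numbers (TMM, filterByExpr with minimum count 10, minimum total 15, Benjamini-Hochberg adjustment over 1858 of 26561 rows). All 92 members passed this filter. SEs were derived from the F statistic. The test was checked on simulated counts. Shares were compared by exact permutation tests in scipy 1.17.1, and figures drawn with matplotlib 3.10.9. Alternatives were DESeq2 1.42.0, limma 3.58.1 on log2(normalized count + 1), other factors, filters, rows and rounding, and leaving out each library.

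The members, lists and named piRNAs were chosen with earlier results of these data known. Named piRNAs were the 10 most abundant, those called, the 5 with the highest and lowest fold changes among non-overlapping members, those nearest the threshold and those sharing reads. rno-piR-53448, rno-piR-61203, rno-piR-9092 and rno-piR-8189 were named after their values were seen. Sequences were not used here.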

Additional observations from a re-analysis of the deposited data

How the results depend on the processing

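The 2 calls higher in HPD became 4 with upper quartile factors (4.35%, beside 4.57% of all small RNAs), 6 with a minimum mean of 50 (6.52%, beside 17.1%), 6 with DESeq2 (6.52%, beside 4.95%), 0 with piRNAs fitted alone, 0 with limma and 1 with linked rows counted once, the last added after the data were seen. The count stayed at 2 (2.17%) whichever library was left out, beside 0.708% to 2.39% of all small RNAs. It also stayed at 2 without nested rows (beside 0.888%), with library size alone (1.67%), with no filter (0.288%) and with cut counts (2.41%). No alternative called a member lower, where 2.73% to 4.61% of all small RNAs were lower without 1 library. Over all small RNAs, 160 calls (41 higher, 119 lower) became 94 of 1690 without nested rows (15 higher, 79 lower) and 242 with DESeq2 (92 higher, 150 lower). They became 7 with limma and 0 with piRNAs alone. Upper quartile factors gave 176 (85 higher, 91 lower), and a minimum mean of 50 gave 223 of 556 (95 higher, 128 lower). Without 1 library there were 77 to 158, with 95 without CTRL2 and 77 without HPD3. The median of all small RNAs moved from 0.03 to 0.28 with upper quartile factors, 0.69 with no filter and 0.18 with limma. Relative to it the abundant piRNAs lay 0.24 higher in the main test, 0.14 to 0.44 higher in the other alternatives and 0.17 lower (-0.17) with no filter. The choice of members bears on these values too. Members above in every HPD library numbered 10 by library size alone (10.9%, beside 9.10% of all), and 26 to 36 without 1 library (16.0% to 21.4% of all), and members below 4 to 10 (15.5% to 18.4% of all).

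Log2 fold changes near 0 turned sign. Leaving out 1 library gave -0.41 to 0.047 for rno-piR-226, -0.43 to 0.0085 for rno-piR-23723, -0.51 to 0.16 for rno-piR-37613 and -0.15 to 0.042 for rno-piR-36806, for which upper quartile factors gave 0.12, no filter 0.14 and a minimum mean of 50 gave 0.058. rno-piR-23949 gave 0.0028 with no filter. The difference between HPD and SD in the share of library reads ran from -0.0287 to 0.0043 percentage points without 1 library, and in the share of piRNA reads from -1.25 to 1.91. The cause of these changes was not tested.

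No paired analysis was possible because the columns could not be tied to the numbered rats. The study also describes separate rats on each diet and no pairs between them, so the numbers alone would not define pairs. The base of piRNAs not matched to the genome gave no other value, as 0 such rows were listed. Counting error grows as counts fall. Its coefficient of variation in SD was 1.44% for rno-piR-226, the most abundant member, and 15.6% for rno-piR-45412, the least abundant. Over the 92 its median was 12.2% in SD and 9.87% in HPD, beside observed medians of 28.5% and 21.0%.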
